A study of Mus musculus with 19 samples.

Results

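The Cyp2d cytochrome P450 family was followed through 9 genes, chosen by symbol from the 24537 genes of the count table: Cyp2d9, Cyp2d10, Cyp2d11, Cyp2d12, Cyp2d13, Cyp2d22, Cyp2d26, Cyp2d34 and Cyp2d40. The libraries were poly(A) RNA of hepatocytes from 19 wild-type male C57BL/6J mice, isolated by perfusing the liver, with 10 young mice aged 5 months and 9 old mice aged 24 months. No mouse carried an allele or received an agent according to the labels, and each library was 1 mouse. The mice were culled on 2 days, 23 days apart: the first day had 5 young and 5 old mice, the second 5 young and 4 old. Mice are named here by their library numbers.

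Cytochromes P450 are haem enzymes of the endoplasmic reticulum that insert oxygen into drugs and steroids, using electrons passed on by P450 reductase and cytochrome b5. Humans have a single functional enzyme of the subfamily, CYP2D6, which clears many prescribed drugs, whereas the mouse carries a cluster of duplicated genes. Cyp2d9 encodes a testosterone hydroxylase of male mouse liver and is a classical gene kept on by the male pattern of growth hormone pulses, and HNF4A is a known activator of Cyp2d transcription.

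All 9 genes lie on chromosome 15 between positions 82370527 and 82794245 of mm10, a span of 424 kb. In order along the chromosome they are Cyp2d22, Cyp2d11, Cyp2d10, Cyp2d9, Cyp2d12, Cyp2d34, Cyp2d13, Cyp2d40 and Cyp2d26, and Cyp2d9 and Cyp2d12 are on the plus strand while the others are on the minus strand. The table marks Cyp2d13 as a pseudogene and the others as protein coding. Cyp2d11 overlaps the microRNA gene Mir7684.

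Several members are near copies of each other, which bears on how reads can be assigned. Over aligned bases of the GENCODE M21 transcripts, Cyp2d10 and Cyp2d11 were 94.2% identical, Cyp2d9 and Cyp2d11 93.4%, Cyp2d9 and Cyp2d10 91.6%, and Cyp2d9 and Cyp2d12 91.4%. Of all windows of 100 bases in the Cyp2d10 transcript, 14.8% occurred unchanged in another gene, against 12.2% for Cyp2d11, 9.86% for Cyp2d9 and 3.79% for Cyp2d12. The share was 0.382% for Cyp2d26, 0.225% for Cyp2d22, 0.128% for Cyp2d34 and 0% for Cyp2d40, and Cyp2d13 had no GENCODE transcript of that name. How the deposited counts divided reads that match more than 1 gene is not given in the sources used here, so the counts of Cyp2d9, Cyp2d10, Cyp2d11 and Cyp2d12 carry this uncertainty.

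The likeness extends upstream of the genes. The RefSeq promoter table (GRCm38.p6) held 5 of the 9 members. The 250 bases before the start are shown for Cyp2d9, Cyp2d10 and Cyp2d11, which were alike in sequence, while Cyp2d11 was far lower in level. Those of Cyp2d26, the abundant gene at the other end of the cluster, are shown for contrast. Each runs 5′ to 3′ on the gene's own strand and ends at the base before the gene's start. Capitals in Cyp2d10 and Cyp2d11 mark bases that differ from Cyp2d9, or have no counterpart there, within the aligned stretch. Cyp2d9 lies on the plus strand at chr15:82452127-82452376. On the minus strand, Cyp2d10 is at chr15:82407195-82407444, Cyp2d11 at chr15:82394023-82394272 and Cyp2d26 at chr15:82794246-82794495.
Cyp2d9: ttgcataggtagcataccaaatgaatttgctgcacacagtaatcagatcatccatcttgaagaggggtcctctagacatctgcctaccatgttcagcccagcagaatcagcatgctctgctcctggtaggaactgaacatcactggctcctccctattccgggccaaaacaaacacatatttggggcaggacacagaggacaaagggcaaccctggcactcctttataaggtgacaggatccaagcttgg
Cyp2d10: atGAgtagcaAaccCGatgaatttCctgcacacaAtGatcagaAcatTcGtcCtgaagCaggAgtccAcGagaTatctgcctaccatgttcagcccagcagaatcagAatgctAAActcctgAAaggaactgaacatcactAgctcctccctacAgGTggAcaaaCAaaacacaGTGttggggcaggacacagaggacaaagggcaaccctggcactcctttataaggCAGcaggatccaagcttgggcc
Cyp2d11: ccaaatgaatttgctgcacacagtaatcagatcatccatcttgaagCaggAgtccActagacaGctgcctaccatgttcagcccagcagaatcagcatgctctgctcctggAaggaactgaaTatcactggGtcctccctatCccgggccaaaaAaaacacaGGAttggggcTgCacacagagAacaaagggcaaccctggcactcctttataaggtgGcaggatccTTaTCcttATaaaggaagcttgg
Cyp2d26: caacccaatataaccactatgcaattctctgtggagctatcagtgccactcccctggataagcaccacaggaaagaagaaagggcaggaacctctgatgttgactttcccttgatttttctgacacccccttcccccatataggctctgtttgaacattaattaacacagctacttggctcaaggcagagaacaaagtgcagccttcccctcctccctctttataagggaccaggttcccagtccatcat
Of the aligned bases, 91.9% were identical between Cyp2d9 and Cyp2d11 and 86.5% between Cyp2d9 and Cyp2d10, while Cyp2d26 could not be aligned to any of them over 100 bases or more. Cyp2d10 had 36 marked bases and Cyp2d11 had 22. Cyp2d40, not printed, was 82.8% identical to Cyp2d9 over 180 aligned bases. Each of 6 motifs was searched on both strands of these 250 bases, where matches of different motifs were allowed to overlap: TTCNNNGAA for STAT5, CAAAGTCCA for HNF4A, TTGCNNAA for C/EBP, CCGGAAG for ETS factors, TGTTTAC for FOXA and CACGTG for E-box factors. None of the 5 member promoters held any of them, and among 27025 genes the shares were 8.13%, 0.451%, 10.8%, 7.83%, 3.54% and 6.86%, in the same order. This says only that these letters are not in these windows.

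Depth was even: counts in genes ran from 17381439 to 20287628 per library. Levels are given as CPM, the counts of a gene scaled to the sum over all genes of its library. Levels of different genes are compared as CPM per kb of exon, apart from ratios and shares of counts within the family. All 10 hepatocyte markers were detected and tested in these libraries. With age 4 of them fell and 2 rose, with a median log2 change of -0.26. Fell and rose mean called by the age test given below, which called 30.9% of all genes, 14.5% lower and 16.3% higher. Markers of other liver cells were also present, and those of macrophages, stellate cells and endothelial cells were mostly higher in old mice. Of the cholangiocyte markers 2 were tested and 0 were called. For macrophages 12 of 12 markers rose, with a summed level of 99.9 to 488 CPM in young and 71.8 to 3831 CPM in old mice. For stellate cells 10 of 10 markers rose, from 46.1 to 124 CPM to 138 to 526 CPM. Of 10 endothelial markers 8 rose (137 to 256 CPM in young, 160 to 588 CPM in old mice), and no T and NK cell marker was abundant enough to test. The highest sums were those of old mouse 1187, and without it the old mice reached 793 CPM for macrophage, 229 CPM for stellate and 412 CPM for endothelial markers. No marker of these lists that the table holds was at 0 in every library. In bulk RNA, fewer cells of a type and less RNA per cell cannot be told apart. Young mice 1184, 1186 and 1188 stood apart in acute-phase genes, with a mean log2 CPM over 23 genes of 9.77, 10.4 and 9.21, against 6.31 to 6.98 in the other young and 6.77 to 8.79 in the old mice.

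In young mice 3 genes made up most of the family. Cyp2d9 was the highest at 845 ± 149 CPM per kb (SD, n = 10), followed by Cyp2d10 at 517 ± 54.6 and Cyp2d26 at 436 ± 73.7. Over the 10 mice the ranges of these neighbours in the order overlapped. A second tier held Cyp2d22 at 71.5 ± 13.5, Cyp2d40 at 58.9 ± 11.2 and the pseudogene Cyp2d13 at 40.2 ± 13.1 CPM per kb, again with overlapping ranges. Cyp2d11 was far lower at 2.45 ± 0.239, Cyp2d12 was at 0.751 ± 0.219 and Cyp2d34 at 0.0582 ± 0.0387 CPM per kb, and no range in this part of the order met the next. Cyp2d11 and Cyp2d10 are neighbours in the cluster and the most alike in transcript sequence, yet they sat in different tiers. In old mice Cyp2d9 was at 513 ± 154 CPM per kb (SD, n = 9), beside Cyp2d26 at 460.2 ± 46.3 and Cyp2d10 at 458 ± 62.0, and the ranges of these 3 overlapped.

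**Figure D1:**
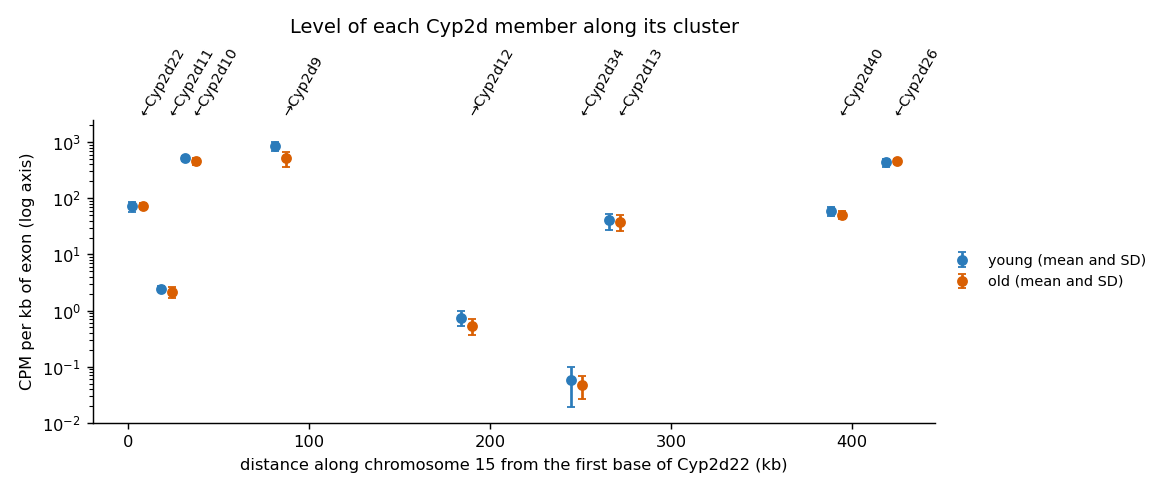
Level of each of the 9 members (CPM per kb of exon, log axis) against its distance in kb along chromosome 15 from the first base of Cyp2d22, with arrows for the strand. Points are means and bars are SDs over 10 young (blue) and 9 old (orange) mice, drawn slightly to either side of the gene's position, and the abundant genes lie at both ends of the cluster with the lowest, Cyp2d12 and Cyp2d34, between them.

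The question of the age comparison was how hepatocyte RNA differed between young and old mice. The test was the quasi-likelihood F test of edgeR with cull day as a term, and a gene was called at a Benjamini-Hochberg adjusted p under 0.05 over all 12269 genes that passed the filter on low counts. Of the 9 members 8 passed that filter. With age, 1 of the 8 was called: Cyp2d9 fell. Over all genes tested, 30.9% were called, 14.5% lower and 16.3% higher, so the number of members called was not above the background. The median log2 change of the 8 tested members was -0.23, against -0.0034 over all genes, and 6 of the 8 were below 0.

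Cyp2d9 is the male-predominant steroid hydroxylase of the family. On the first cull day the young mice had 1237, 1276, 1587, 1650.1 and 1826 CPM and the old mice 586, 602, 749.6, 1003 and 1176 CPM. Every old mouse of that day was below every young mouse of that day, which held in that direction for 2.58% of the genes tested. On the second day the young mice had 989, 1199, 1326, 1359.7 and 1399.6 CPM and the old mice 530.45, 737, 1064 and 1127 CPM. Here the ages overlapped: 2 of 4 old mice were below every young mouse, and the other old mice were above young mouse 1239. Over both days the 10 young mice had 1385 ± 244 CPM and the 9 old mice 842 ± 252 CPM (mean ± SD), all 9 old mice lay below the young median of 1343 CPM, and 5 of 9 lay below every young mouse.

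The log2 change of Cyp2d9 was -0.76 (SE 0.158, edgeR adjusted p = 0.00218). Within the first cull day it was -0.92 (SE 0.224, edgeR adjusted p = 0.0494, with 3.67% of genes called on that day alone, 1.79% lower), and within the second -0.57 (SE 0.194, edgeR adjusted p = 0.0602, with 19.3% of genes called, 7.14% lower). The call was kept without any single mouse, at log2 fold changes of -0.84 to -0.69, and without the 3 young mice high in acute-phase genes, at -0.79 (edgeR adjusted p = 0.0066). It ended when a score of other-cell markers (mean log2 CPM of 33 tested macrophage, endothelial, stellate and B cell markers) was added to the fit, at -0.55 (SE 0.195, edgeR adjusted p = 0.0687). That score ran from 2.32 to 3.96 in young and from 2.63 to 5.96 in old mice.

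**Figure D2:**
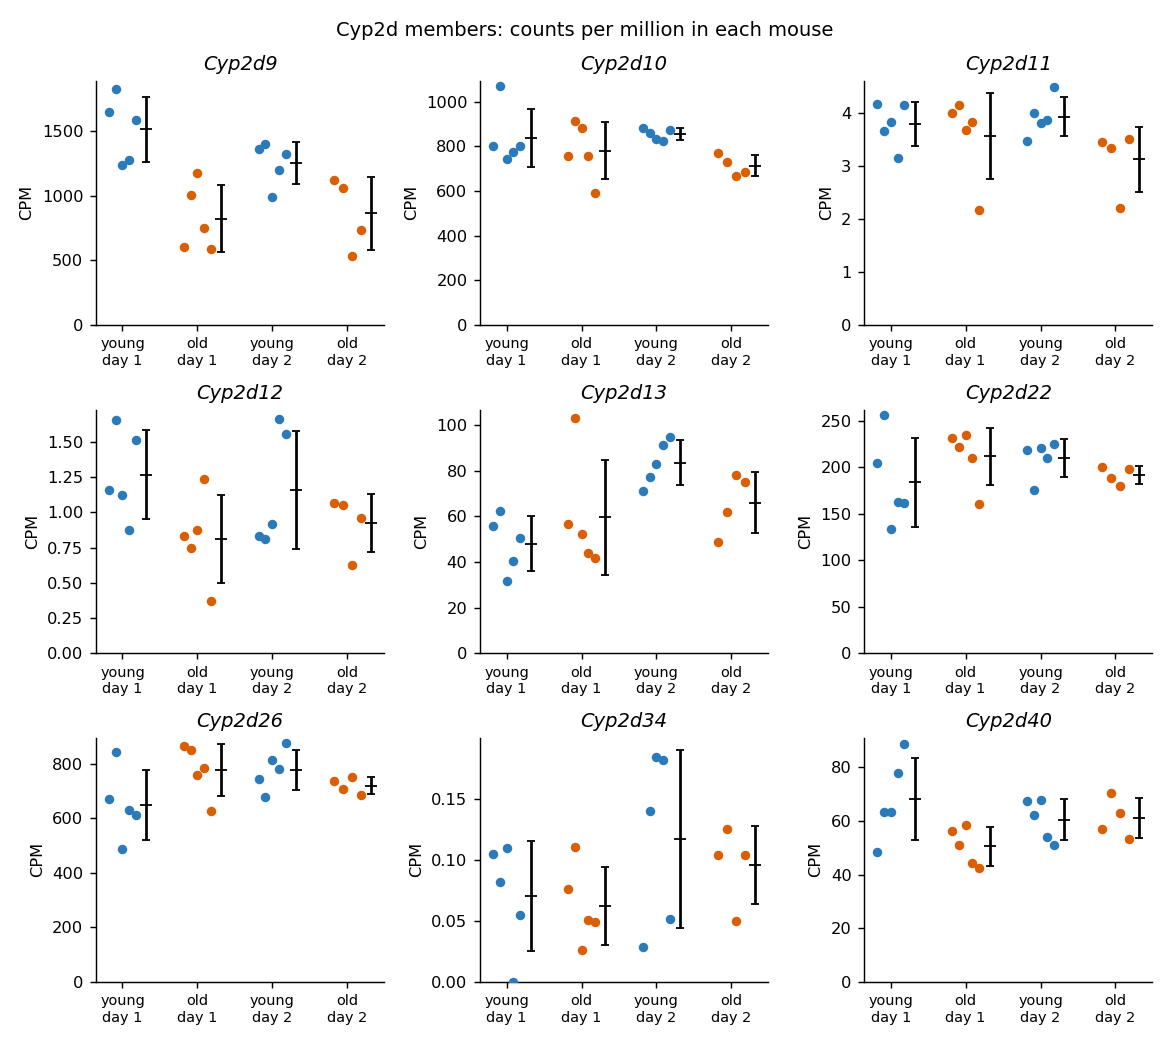
Level of each member (CPM, axis from 0) in every mouse, by age (blue young, orange old) and cull day. Points are mice, and the black mark and bar beside each group are its mean and SD (n = 5, 5, 5 and 4); on day 1 the old mice lie below all young mice for Cyp2d9 but not for Cyp2d10 or Cyp2d26.

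Cyp2d10 was the next gene in level. Its lowest, median and highest levels were 744, 827 and 1068 CPM in young and 589.5, 754 and 915 CPM in old mice, and 4 of 9 old mice lay below every young mouse. The log2 fold change was -0.22 (SE 0.0857, edgeR adjusted p = 0.0573), just short of the threshold. On the second day the young mice had 822, 831, 859, 872 and 883 CPM and the old mice 666, 687, 729 and 771 CPM, so the ages did not overlap there, a separation in that direction held by 5.79% of genes. On that day alone Cyp2d10 was called at -0.29 (SE 0.077, edgeR adjusted p = 0.0207), while on the first day it was -0.15 (SE 0.158, edgeR adjusted p = 0.554). Over both days it was called with DESeq2 (-0.23, adjusted p = 0.0232) and without young mice 1184, 1186 and 1188 (-0.30, edgeR adjusted p = 0.0253), whereas with the other-cell score in the fit it was at -0.09 (SE 0.104, edgeR adjusted p = 0.613).

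The ratio of Cyp2d9 to Cyp2d10 within each library is given as a description, with no test, since the pair was chosen after its values were seen. The 10 young mice had 1.64 ± 0.249 counts of Cyp2d9 per count of Cyp2d10 and the 9 old mice 1.11 ± 0.255 (mean ± SD). Cyp2d9 was below Cyp2d10 in old mice 1181, 1187, 1189 and 1240, at ratios of 0.794, 0.994, 0.994 and 0.797, and in no young mouse. The counts were thus nearly equal in 1187 and 1189. On the first day the ratios ran from 1.65 to 2.06 in young and from 0.794 to 1.34 in old mice, without overlap. On the second day they ran from 1.19 to 1.63 and from 0.797 to 1.46, with overlap. The transcripts have 65 windows of 100 bases in common, and the part of read assignment in the ratio was not tested.

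Cyp2d11 and Cyp2d12 also had lower values in old mice without passing the test. Cyp2d11 had 3.16, 3.86 and 4.49 CPM (lowest, median, highest) in young and 2.17, 3.52 and 4.16 CPM in old mice, and differed by -0.25 on the log2 scale (SE 0.119, edgeR adjusted p = 0.121). Its 2 lowest values, 2.17 and 2.21 CPM, were those of old mice 1189 and 1240, which also had the lowest Cyp2d9 and Cyp2d10. Cyp2d12 had 0.812, 1.14 and 1.67 CPM in young and 0.370, 0.874 and 1.24 CPM in old mice, and differed by -0.54 (SE 0.204, edgeR adjusted p = 0.0507). That gene rested on 14.5 to 32 counts per library in young and 7.5 to 24.5 in old mice, and it passed the threshold with limma voom (-0.52, adjusted p = 0.0498) and without 5 of the 19 mice in turn. Cyp2d34 had 0 to 3.5 counts per library in young and 0.5 to 2.5 in old mice, too few to test, and no difference in it was detectable at this depth.

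**Figure D3:**
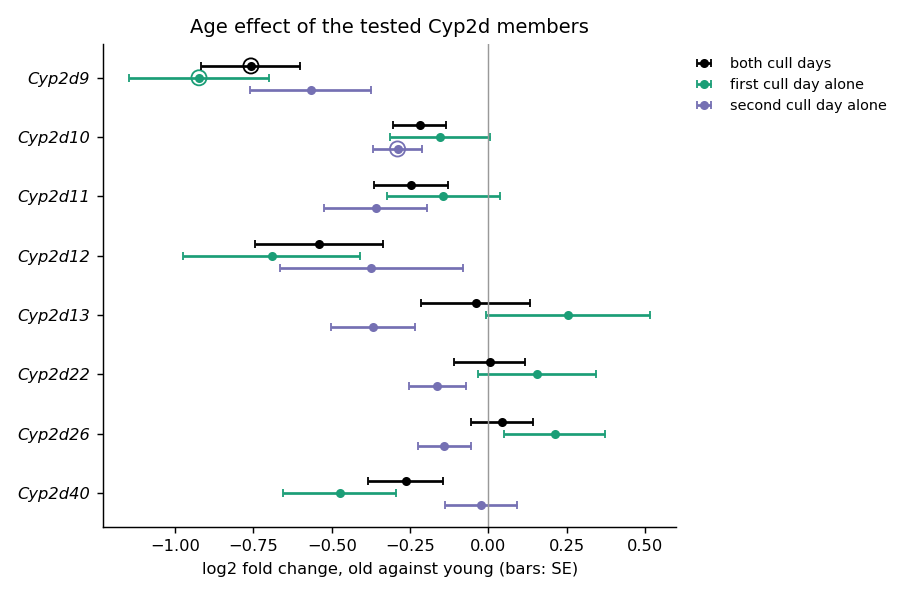
Log2 fold change of old against young mice for the 8 tested members over both cull days (black), on the first day alone (green) and on the second day alone (purple). Bars are SEs and rings mark an adjusted p under 0.05; Cyp2d9 lies below 0 in all 3 fits, while Cyp2d13, Cyp2d22 and Cyp2d26 lie above 0 on the first day and below 0 on the second.

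Cyp2d26 and Cyp2d22 showed no difference with age that passed the test. Cyp2d26 had 485, 711 and 875 CPM (lowest, median, highest) in young and 627.5, 752 and 864 CPM in old mice, and its log2 change was 0.04 (SE 0.0985, edgeR adjusted p = 0.762). Cyp2d22 had 134, 207 and 256 CPM in young and 161, 200.4 and 235 CPM in old mice, and its log2 change was 0.0033 (SE 0.112, edgeR adjusted p = 0.985). For both genes the old values lay inside the young range. Their fold changes were above 0 on the first cull day, at 0.21 and 0.15, and below 0 on the second, at -0.14 and -0.16, and none of these 4 values passed the test.

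The 3 young mice high in acute-phase genes lay at the bottom of the young range for these genes. Mice 1184, 1186 and 1188 had 485, 629 and 612 CPM of Cyp2d26, against 669 to 875 CPM in the other young mice, and 134, 163 and 161 CPM of Cyp2d22, against 176 to 256 CPM. The Cyp2d13 level in these mice was 31.7, 40.6 and 50.4 CPM, against 55.8 to 95.1 CPM in the other young mice. Without these mice the fold changes turned negative for Cyp2d26 (-0.10, edgeR adjusted p = 0.418) and Cyp2d22 (-0.17, edgeR adjusted p = 0.172), both still short of the threshold, while Cyp2d13 moved from -0.04 to -0.25 (edgeR adjusted p = 0.30). With the acute-phase score as a covariate and all mice kept, Cyp2d26 was at 0.09 (edgeR adjusted p = 0.396) and Cyp2d22 at 0.06 (edgeR adjusted p = 0.557). Cyp2d40 in mice 1186 and 1188, at 77.8 and 88.7 CPM, exceeded every other mouse of the study. Mouse 1184, at 63.2 CPM, was close to the young median of 63.3 CPM. Old mice 1236, 1187 and 1189, with acute-phase scores of 8.79, 8.76 and 8.52, had 57.1, 44.3 and 42.3 CPM of Cyp2d40.

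**Figure D4:**
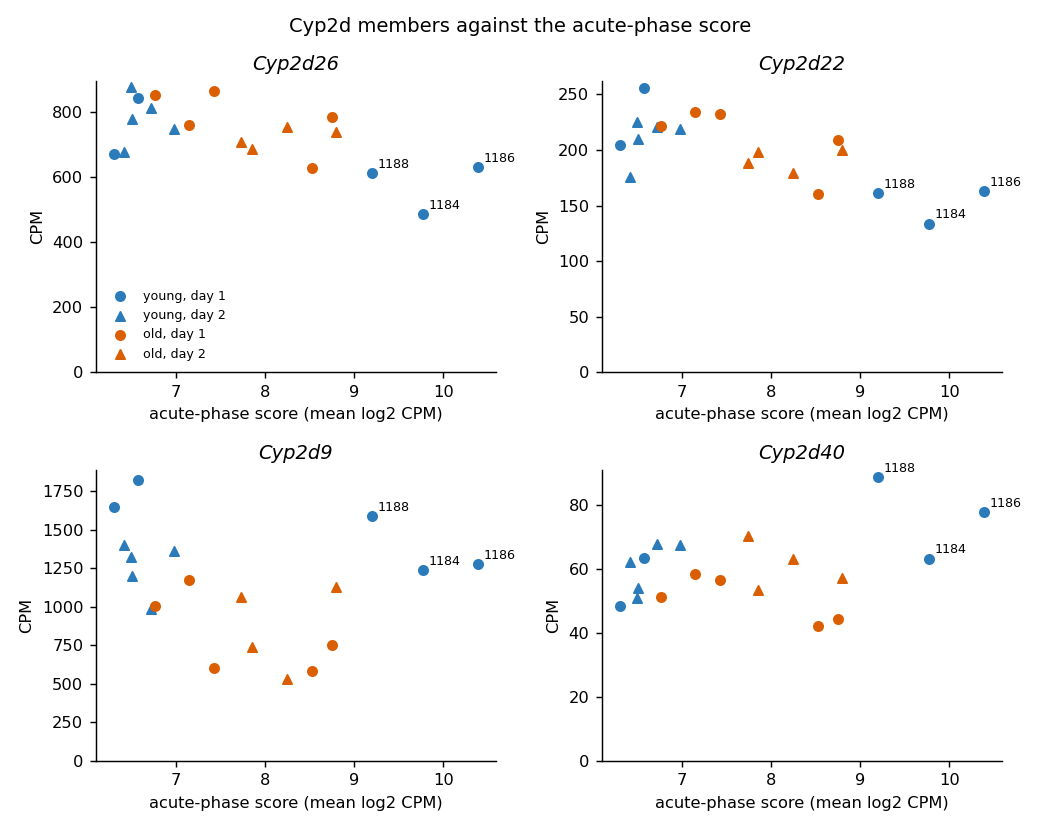
Level of Cyp2d26, Cyp2d22, Cyp2d9 and Cyp2d40 (CPM) against the acute-phase score (mean log2 CPM of 23 genes) in each mouse, by age (colour) and cull day (circle first, triangle second). Young mice 1184, 1186 and 1188 (labelled, scores 9.21 to 10.4) are lowest among the young for Cyp2d26 and Cyp2d22 and, for 1186 and 1188, highest of all mice for Cyp2d40.

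Cyp2d40 had 48.5, 63.3 and 88.7 CPM (lowest, median, highest) in young and 42.3, 56.4 and 70.4 CPM in old mice. The ages overlapped, with 2 of 9 old mice below every young mouse. Its log2 fold change was -0.26 (SE 0.121, edgeR adjusted p = 0.101), with -0.47 on the first day (edgeR adjusted p = 0.135) and -0.02 on the second (edgeR adjusted p = 0.912). Without young mice 1184, 1186 and 1188, which include its 2 highest values, it was -0.09 (edgeR adjusted p = 0.56).

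Cyp2d13, the pseudogene, was the member in which the cull days differed most. On the first day it stood at 48.1 ± 12.2 CPM in the 5 young and 59.6 ± 25.2 CPM in the 5 old mice (mean ± SD). On the second day the 5 young mice had 83.5 ± 9.81 CPM and the 4 old mice 66.0 ± 13.4 CPM. All 5 young mice of the second day, at 71.2 to 95.1 CPM, were above all 5 of the first, at 31.7 to 62.3 CPM, where the 3 lowest, 31.7, 40.6 and 50.4 CPM, were those of the acute-phase mice 1184, 1186 and 1188. The other young mice of the first day had 55.8 and 62.3 CPM. The share of all genes that separated the young mice by cull day in this way was not counted. The log2 change of the second against the first day was 0.50 (SE 0.174, edgeR adjusted p = 0.0643), and it was called by DESeq2 (0.50, adjusted p = 0.0334) and by limma voom (0.52, adjusted p = 0.0181). With age it was -0.04 (SE 0.174, edgeR adjusted p = 0.879).

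By edgeR, 0 of the 8 tested members were called between the cull days, where 12.3% of all genes were, and 1 of the 8 had an unadjusted p under 0.05, against 30.0% of all genes. For the interaction of age and cull day, 0 of 8 members and 0% of all genes were called. No member had an unadjusted p under 0.05 for the interaction, against 6.51% of all genes. DESeq2 called 10 genes for the interaction, none of them a member, and limma voom called 349 genes including 1 member, Cyp2d22 (-0.66, adjusted p = 0.0444). The members' different signs on the 2 days were therefore not shown to differ by edgeR.

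Summed over its 9 genes, the family had a lower level in old mice. The sum does not depend on how reads were divided among these 9 genes, but Cyp2d9 also has 20 windows of 100 bases in common with the pseudogene Cyp2d41-ps, which is outside the sum. The 10 young mice totalled 3276 ± 379 CPM and the 9 old mice 2668 ± 385 CPM (mean ± SD), and the log2 ratio of these means was -0.30. The lowest, median and highest totals were 2699.99, 3281 and 4123 CPM in young and 2051, 2591 and 3166 CPM in old mice. All 9 old mice were below the young median and 5 of 9 were below every young mouse. On the first cull day the ages overlapped, with 2699.99 to 4123 CPM in young and 2051 to 3166 CPM in old mice, and 3 of 5 old mice were below every young mouse of that day. On the second they did not, with 3009 to 3450.2 CPM in young and 2272 to 2947 CPM in old mice. A separation in that direction was held by 5.79% of single genes, and no such share was counted for sums of genes. The sum was described only and not tested, and the part of other cells in it was not tested either. With the other-cell score in the fit, its most abundant members were at -0.55 (Cyp2d9), -0.09 (Cyp2d10) and 0.19 (Cyp2d26).

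Cyp2d9 made up less of the family in old mice. Its share was 42.2% ± 4.82 over the 10 young and 31.0% ± 5.73 over the 9 old mice (mean ± SD), with ranges of 32.9% to 48.1% and 23.4% to 38.2%. The shares of Cyp2d26 were 21.8% ± 3.02 and 28.5% ± 3.56, and those of Cyp2d10 were 25.9% ± 1.34 and 28.2% ± 1.35. In old mice 1181, 1187, 1189 and 1240 Cyp2d26 was the most counted member, at 33.6%, 30.3%, 30.6% and 33.1% of the family. Shares sum to a fixed total, so a fall in one raises the others.

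**Figure D5:**
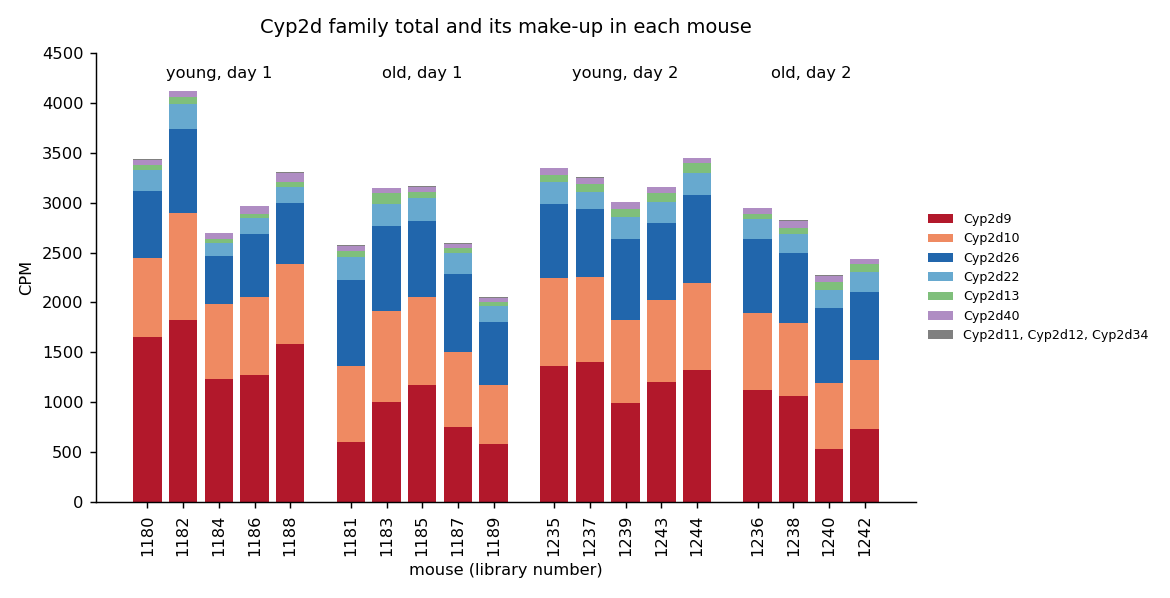
Stacked level of the family (CPM, axis from 0) in each mouse, ordered by cull day and age, with 1 colour per member and Cyp2d11, Cyp2d12 and Cyp2d34 together in grey. The Cyp2d9 part at the base runs from 989 to 1826 CPM in young and from 530.45 to 1176 CPM in old mice, while the Cyp2d10 and Cyp2d26 parts change less.

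Across the 19 mice, members varied together to different degrees once age and cull day were subtracted. These correlations are of log2 CPM residuals within the same libraries, share depth and the 3 young mice that stood apart, and are given as a description of 28 pairs. Cyp2d22 and Cyp2d26 were the closest pair (Pearson's r 0.91, Spearman's rho 0.81), followed by Cyp2d10 with Cyp2d22 (r 0.80, rho 0.74) and Cyp2d9 with Cyp2d10 (r 0.71, rho 0.66). Cyp2d9 and Cyp2d26 were only loosely related (r 0.24, rho 0.12). Cyp2d40 stood outside, with r from -0.15 to 0.30 against the other 7 tested members. The Cyp2d22 and Cyp2d26 transcripts share only 6 windows of 100 bases.

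By the same residuals, the gene most like each member among those with a mean of at least 10 CPM was named. For Cyp2d9 it was Naa60 (r 0.82), for Cyp2d10 Txndc15 (r 0.89), for Cyp2d13 Atp5sl (r 0.91), for Cyp2d22 Serpinf1 (r 0.94) and for Cyp2d40 Mcfd2 (r 0.82), each over 19 mice. Cyp2d22 was next closest to Pemt (r 0.92), which encodes phosphatidylethanolamine methyltransferase, and Cideb (r 0.92), a lipid droplet protein of hepatocytes. For Cyp2d26 the closest were 3 rows of the overlapping Ugt1a locus, led by Ugt1a10 (r 0.93), whose counts are not independent of each other.

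Of 6 genes listed as electron transfer partners of P450s, 5 had a log2 change below 0 and 1 was called, where 30.9% of all genes were. Cyb5b, the outer mitochondrial form of cytochrome b5, fell by 0.37 on the log2 scale (SE 0.107, edgeR adjusted p = 0.0156), with 597 ± 75.7 CPM in young and 473 ± 77.5 CPM in old mice. Por, the P450 reductase, was at -0.32 (edgeR adjusted p = 0.0811) and Cyb5a, the microsomal cytochrome b5, at -0.15 (edgeR adjusted p = 0.157). The median of the 6 was -0.18. Errors after ± in this and the following gene groups are SDs over 10 young and 9 old mice.

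Haem synthesis and breakdown had 12 tested genes, of which 3 fell and 1 rose, a share called close to the 30.9% over all genes. Those that fell included the synthesis enzymes Cpox (-0.37, edgeR adjusted p = 0.0115) and Uros (-0.35, edgeR adjusted p = 0.022), and Ppox, a late enzyme of the same pathway, rose (0.30, edgeR adjusted p = 0.0218). Alas1, the rate-limiting enzyme, had 163 ± 125 CPM in young and 94.5 ± 25.6 CPM in old mice (-0.83, edgeR adjusted p = 0.0981). Hmox1, which breaks haem down and is also expressed by macrophages, had 12.4 ± 6.33 CPM in young and 33.7 ± 50.7 CPM in old mice, with a highest old value of 167 CPM (1.25, edgeR adjusted p = 0.0546). Macrophage markers were higher in old mice too, and their part in this value was not tested. The median of the list was -0.06.

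Among 20 listed regulators of Cyp2d or of male-biased P450 genes, 19 were tested, 3 fell and none rose, and 15 of the 19 were below 0, where 14.5% of all genes tested fell and 16.3% rose. Hnf4a, the nuclear receptor that sustains hepatocyte genes, fell by 0.30 on the log2 scale (SE 0.0984, edgeR adjusted p = 0.0268), with 674 ± 70.4 CPM in young and 564 ± 102 CPM in old mice. Klf9, a zinc finger factor, fell by 0.46 (edgeR adjusted p = 0.0352), and Rxra, the retinoid X receptor, by 0.27 (edgeR adjusted p = 0.0206). The growth hormone receptor Ghr was at -0.23 (edgeR adjusted p = 0.116) and its effector Stat5b at -0.09 (edgeR adjusted p = 0.573). Bcl6, a STAT5-repressed repressor of the male liver, had 38.5 ± 21.3 CPM in young and 21.4 ± 16.1 CPM in old mice (-0.86, edgeR adjusted p = 0.167). Cux2, a female-predominant repressor, was too low to test, at 0.0525 to 0.153 CPM in young and 0.104 to 0.207 CPM in old mice. The median of the 19 was -0.10.

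Of 40 other Cyp2 genes in the table, 26 were tested, 3 rose and 2 fell, a smaller share than the 30.9% called over all genes. Cyp2f2, abundant in periportal hepatocytes, fell by 0.57 (SE 0.108, edgeR adjusted p = 0.00103), from 1503 ± 223 CPM in young to 1031 ± 194 CPM in old mice. Cyp2c29 fell by 0.43 (edgeR adjusted p = 0.0498). Those that rose were at low levels: Cyp2j9 (0.90, edgeR adjusted p = 0.0234), Cyp2c69 (0.88, edgeR adjusted p = 0.0356) and Cyp2b9, at 0.0609 ± 0.0621 CPM in young and 15.8 ± 25.6 CPM in old mice.

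The genes around the cluster were called in both directions. Within 500 kb of the members' span there were 36 other genes, of which 19 were tested, with a median log2 change of -0.03, and 2 rose and 2 fell, a smaller share than the 30.9% called over all genes. Nfam1, an immune receptor gene, was among those that rose (1.39, edgeR adjusted p = 0.0488), and Desi1 among those that fell (-0.25, edgeR adjusted p = 0.0162). The family pseudogene row Cyp2d37-ps, which is not among the 9 genes, had 9.76 ± 2.92 CPM in young and 12.0 ± 4.28 CPM in old mice (0.30, edgeR adjusted p = 0.199).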

How the data were processed

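Hepatocyte poly(A) RNA of 19 mice was sequenced as paired reads from a stranded kit, per the labels' protocols. STAR, HOMER and the build GRCm38 (mm10) are named in the submitters' processing notes. The authors deposited 1 table of counts per gene, called raw in its name and handled here by the rules for an expected count, since 29.2% of its values were not whole. All values were multiples of 0.5, for a reason not given in the sources used here, and were rounded for the count tests. Genes held 78.3% to 86.5% of each column's stated total, and CPM was computed on the sum over genes. All columns were matched to a mouse by library number.

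Age and cull day were fitted with edgeR 4.0.16 (R 4.3.3; TMM scaling, filterByExpr with a minimum count of 10, quasi-likelihood F test, Benjamini-Hochberg over all genes tested). DESeq2 1.42.0 and limma 3.58.1 (voom) served as alternatives. The edgeR fit of age was tested on simulated counts. Residual correlations used log2 CPM with a prior count of 2. Promoters came from RefSeq. All 9 members were named with their values, and for the 6 members above 10 CPM the genes most alike were sought. The members and lists were chosen with earlier results of these data known. P-values measure the spread between mice. Some genes of the lists are counted but not reported here by name.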

Additional observations from a re-analysis of the deposited data

Results flagged for a closer look

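In 40 checks for a mouse far from the rest of its age group, of which chance flags about 1 in 20, young mouse 1182 had a Cyp2d10 level of 1068.26 CPM, far above the other young mice at 744 to 883 CPM. The same mouse had the highest family total, 4123.25 CPM, against at most 3450.2 CPM in the other young mice. Without it the log2 ratio of mean family totals was -0.25 in place of -0.30.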

How the results depend on the processing

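Cyp2d9 stayed negative in all 14 alternatives, at -1.14 to -0.55, and lost its call in 3: on the second day alone, with the other-cell score, and on the first day without young mice 1184, 1186 and 1188 (-1.14, edgeR adjusted p = 0.291), a fit chosen after seeing the data with fewer samples. The number of members called by age was 3 with DESeq2 size factors in edgeR, 2 with DESeq2, limma voom, the acute-phase score as a covariate, without those 3 mice or without old mouse 1187, and 0 with the other-cell score or on the first day without those 3 mice. Of the 12269 genes tested, 3875, 4114, 4003 and 4279 were called in the first 4 of these settings. Without those 3 mice 3355 of 12354 genes were called, and without old mouse 1187 it was 3014 of 12277. Leaving out each mouse gave 1 to 2 members, with 3014 to 3949 of all genes called. The number of members called by cull day was 1 with DESeq2 and with limma voom, which called 2061 and 2170 of all genes. Leaving out each mouse, it was 0 to 1, with 609 to 2335 of all genes called. For the interaction it was 1 with limma voom. The causes were not tested.

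Members near 0 changed sign. Cyp2d22 was -0.0064 with DESeq2 size factors and with DESeq2, -0.030 without the filter, -0.00073 without the cull day term, -0.16 on the second day, -0.17 without the 3 young mice and -0.19 on the first day without them. Cyp2d13 was 0.0038 with library totals, 0.25 on the first day, 0.39 with the other-cell score, 0.027 with the acute-phase score and 0.0029 without old mouse 1187. Cyp2d26 was -0.14 on the second day, -0.096 without the 3 young mice and -0.029 on the first day without them. Leaving out each mouse gave -0.056 to 0.072 for Cyp2d22, -0.19 to 0.038 for Cyp2d13 and -0.013 to 0.093 for Cyp2d26. The family total kept its direction, at -0.35 to -0.32 in 3 alternatives and -0.33 to -0.25 leaving out each mouse. Library totals alone moved the share of higher among all genes called by age from 53.0% to 64.2%, and the number of genes called was 450 on the first day alone, 2388 on the second, 1455 with the other-cell score and 0 on the first day without the 3 young mice, against 3785. For the cull day 0 genes were called without the 3 young mice, against 1506. No paired analysis was possible because the ages share no replicate number.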
